A study of Mus musculus with 6 samples.

Results

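The ERK pathway feedback and ETV output genes are 10 genes in 3 roles. The phosphatases Dusp4, Dusp5 and Dusp6 act on ERK, the adaptors Spry1, Spry2, Spry4 and Spred1 act further up the cascade, and Etv1, Etv4 and Etv5 encode the PEA3 group of ETS transcription factors. They were chosen by pathway role, with earlier results of these data known. All 10 were found by NCBI Gene identifier among the 16315 genes of the deposited table. All 10 were also among the 10615 genes tested, which averaged at least 0.5 FPKM (fragments relative to transcript length and to all mapped fragments of the library) over the 6 libraries. Dusp5 reached that mean through its SAS libraries alone. Messenger RNA came from B16F10, a pigmented mouse melanoma line of C57BL/6 origin. SAS, a compound known here by these letters alone, was given at a labelled concentration of 500 (unit written μm) for 24 h in 3 libraries, or 0.05% DMSO as vehicle in the other 3. The labels give no DMSO percentage for the SAS libraries, so a matched solvent cannot be assumed. By the protocol both groups were incubated for 24 h, but the table's columns call the vehicle libraries 0 h, so a day of culture and the compound cannot be told apart if that name holds.

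ERK is the last kinase of a cascade that runs from receptor tyrosine kinases through RAS, RAF and MEK. Active ERK induces genes whose products restrain the same cascade. The dual-specificity phosphatases remove phosphate from ERK, and Sprouty and Spred proteins interfere with signalling between receptor, RAS and RAF. ERK also relieves the repressor Capicua (Cic), which otherwise holds down Etv1, Etv4 and Etv5. In melanocytes the cascade is driven by receptors such as Kit, and the mRNAs of these feedback and ETV genes are widely read as a measure of pathway output.

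With SAS, Dusp4, Dusp6, Spry1, Spry2 and Spry4 rose, by 1.32-fold to 2.25-fold on the FPKM scale, while Etv4 fell to a level 3.11-fold below that in vehicle. Dusp5, Spred1, Etv1 and Etv5 did not pass the test. Thus 5 of 10 members were higher in SAS, where 18.9% of all genes tested were, and 1 was lower, where 18.5% of all genes tested were, so 6 passed in either direction beside 37.4% of genes tested (limma on log2(FPKM + 1), Benjamini-Hochberg adjusted p below 0.05 over all genes tested). Without SAS replicate 2 or vehicle replicate 3, 2 members were lower, Etv4 and Etv5. The libraries of 6 members lay entirely above vehicle, a pattern shared by 24.5% of genes tested, those of 3 lay entirely below, shared by 24.9%, and those of Etv1 overlapped. In either direction, 49.4% of genes tested did not overlap. The members' median log2 fold change was 0.27, beside -0.014 over all genes tested. Because the members were chosen with earlier results known, these shares and medians are not a test of the members as a set. In bulk RNA, fewer cells that express a gene and less RNA per cell cannot be told apart.

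**Figure D1:**
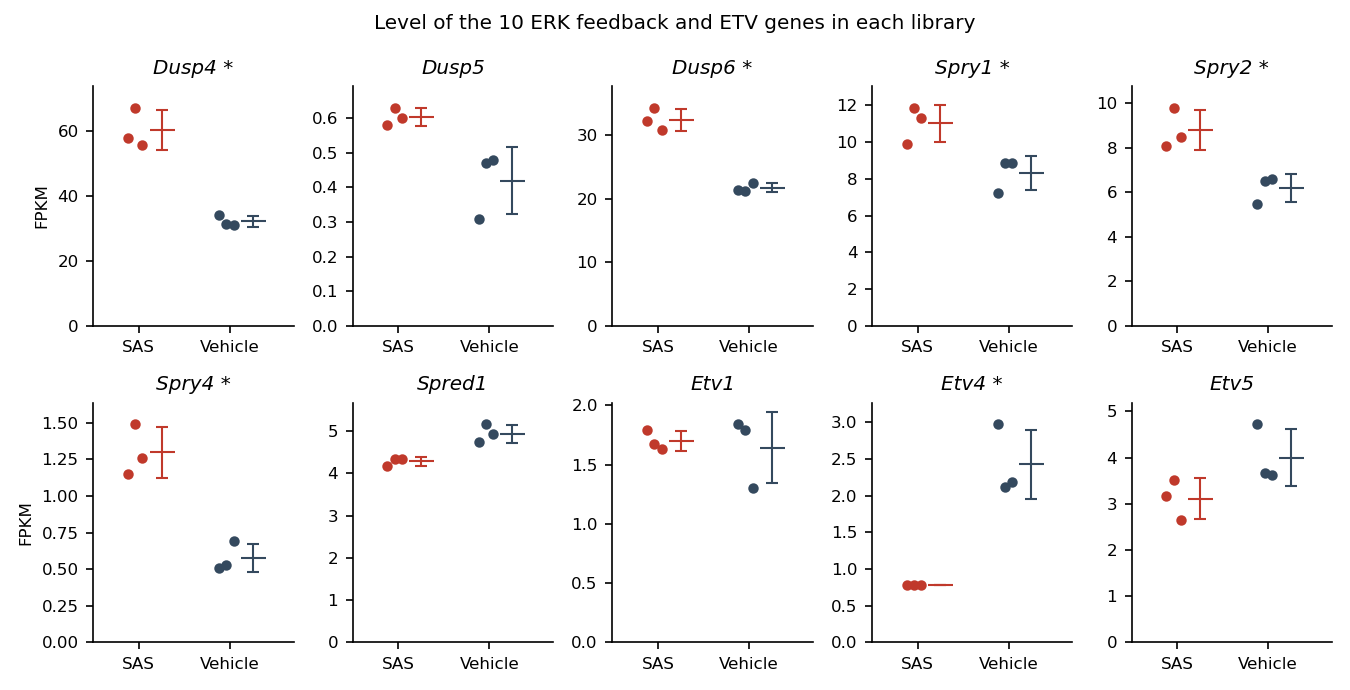
FPKM (y axis, each panel from 0) of each member in the 3 SAS and 3 vehicle libraries; points are libraries, bars the mean ± SD, and an asterisk marks a gene that passed the test. Dusp4, Dusp6, Spry1, Spry2 and Spry4 sit higher in SAS, and Etv4 stands at 0.78 FPKM in each SAS library, below all vehicle libraries.

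The promoter windows show what DNA these genes share near their starts. RefSeq windows on GRCm38.p6, from 250 bases before to 50 bases after an annotated start, were matched for 7 members in 9 windows. No window was matched for Dusp4, Spry4 or Etv4. Each was searched on both strands for the octamer that Cic binds, taken as TGAATGAA, TCAATGAA, TGAATGGA, TCAATGGA, TGAATGAG, TCAATGAG, TGAATGGG or TCAATGGG. It was also searched for the ETS core GGAAGT, the cyclic AMP response element TGACGTCA and the serum response factor's CArG box. The motif forms were chosen after the windows had been read. The 4 windows with a Cic octamer follow, 5′ to 3′ along the gene, with the octamer's letters in capitals. They are shown because a repressor of the ETV genes binds this octamer, and because they include both members that rose and members that did not pass.
Dusp6, chr10:99262981-99263280, plus strand: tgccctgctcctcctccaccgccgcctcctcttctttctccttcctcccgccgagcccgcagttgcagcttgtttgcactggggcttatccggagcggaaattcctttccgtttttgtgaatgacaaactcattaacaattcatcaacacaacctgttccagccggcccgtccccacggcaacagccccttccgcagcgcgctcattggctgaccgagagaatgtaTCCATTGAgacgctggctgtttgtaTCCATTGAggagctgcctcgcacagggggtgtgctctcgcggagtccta
Spry2, chr14:105896770-105897069, minus strand: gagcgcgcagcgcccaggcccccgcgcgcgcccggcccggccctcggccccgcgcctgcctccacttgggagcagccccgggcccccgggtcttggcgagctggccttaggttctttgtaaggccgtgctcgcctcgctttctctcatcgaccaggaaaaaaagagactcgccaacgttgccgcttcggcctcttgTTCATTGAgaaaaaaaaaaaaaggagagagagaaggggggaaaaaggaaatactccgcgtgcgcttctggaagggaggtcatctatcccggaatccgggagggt
Dusp5, chr19:53528895-53529194, plus strand: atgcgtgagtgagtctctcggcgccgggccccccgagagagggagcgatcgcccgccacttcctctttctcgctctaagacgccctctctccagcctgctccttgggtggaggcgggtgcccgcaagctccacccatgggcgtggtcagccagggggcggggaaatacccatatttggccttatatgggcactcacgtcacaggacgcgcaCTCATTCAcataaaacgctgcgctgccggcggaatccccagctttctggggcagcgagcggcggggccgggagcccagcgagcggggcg
Etv5, second start, chr16:22438319-22438618, minus strand: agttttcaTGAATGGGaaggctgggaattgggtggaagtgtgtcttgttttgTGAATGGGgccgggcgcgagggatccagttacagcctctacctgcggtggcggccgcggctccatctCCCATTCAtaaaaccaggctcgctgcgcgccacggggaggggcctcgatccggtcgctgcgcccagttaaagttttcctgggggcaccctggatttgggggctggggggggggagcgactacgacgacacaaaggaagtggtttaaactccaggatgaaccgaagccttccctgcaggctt

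Of the 9 windows of 7 members, 4 held a Cic octamer, each in a different member, and 7.02% of all 32851 RefSeq windows of this length did. Because the motif forms were chosen after the members' windows had been read, comparing these shares is not a test. Dusp6 had 2 matches, at bases -24 to -17 and 2 to 9 counted from the start, both TCAATGGA on the opposite strand. Spry2 had 1 match, TCAATGAA on the opposite strand at bases -54 to -47. Dusp5 had TGAATGAG on the opposite strand at bases -39 to -32. Etv5 had 3 copies of TGAATGGG, in its second window alone. The octamer therefore occurred in windows of genes that rose (Dusp6, Spry2) and of genes that did not pass (Dusp5, Etv5). The windows of Spry1, Spred1 and Etv1 and the first window of Etv5 held none of these letters.

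The ETS core, found in 23.8% of all windows, occurred once in Dusp5, once in the first window of Etv1 and 2 times in the second window of Etv5. The CArG box, found in 1.63% of all windows, occurred in Dusp5 alone among the members, as 2 neighbouring copies between bases -82 and -63. The cyclic AMP response element, found in 1.79% of all windows, occurred in no member's window. None of these matches overlapped a Cic octamer.

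**Figure D2:**
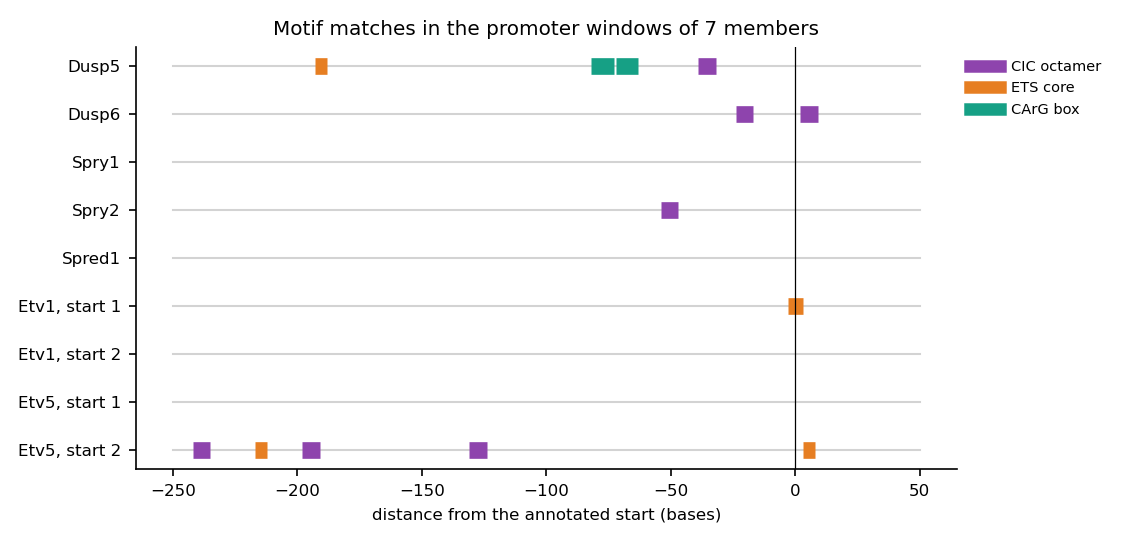
Motif matches in the 9 promoter windows of 7 members, by distance in bases from the annotated start (x axis, 0 marks the start); coloured blocks are matches on either strand. Cic octamers lie in Dusp5, Dusp6, Spry2 and the second Etv5 window, and CArG boxes in Dusp5 alone.

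Among the ERK phosphatases, 2 of 3 members rose and the other did not pass. Dusp4 (NCBI Gene 319520), a nuclear phosphatase of ERK and other MAP kinases, had 57.88, 67.05 and 55.75 FPKM in SAS libraries, against 34.14, 31.23 and 31.14 FPKM in vehicle libraries. The groups did not overlap, and the lowest SAS library stood well above the highest vehicle library. Dusp4 averaged 60.2 ± 6.00 FPKM in SAS and 32.2 ± 1.71 FPKM in vehicle (SD over 3 libraries, as for every mean below), 1.87-fold higher in SAS (log2 fold change 0.88, SE 0.073, limma adjusted p = 1.1e-05). It was the most abundant member in both groups, and its log2 fold change ranked 70 from the top among all genes tested. Dusp6 (NCBI Gene 67603), the cytoplasmic phosphatase selective for ERK whose window is printed above, had 32.18, 34.31 and 30.84 FPKM in SAS libraries, against 21.36, 21.23 and 22.53 FPKM in vehicle libraries. It was 1.49-fold higher in SAS, with no overlap (log2 fold change 0.56, SE 0.060, limma adjusted p = 6.31e-05).

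Dusp5 (NCBI Gene 240672), the nuclear phosphatase selective for ERK, was barely expressed. It had 0.58, 0.63 and 0.60 FPKM in SAS libraries, against 0.31, 0.47 and 0.48 FPKM in vehicle libraries. Every SAS library lay above every vehicle library, but the log2 fold change of 0.18 (95% confidence interval 0.029 to 0.33) did not pass (limma adjusted p = 0.0587). Only 0.2% of genes tested had a lower mean level.

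Dusp4 and Dusp6 carried most of the MAP kinase phosphatase mRNA. Of the summed FPKM of the 10 MAP kinase phosphatase genes measured, Dusp4 made up 45.6% ± 1.57 in SAS and 37.9% ± 2.02 in vehicle. Dusp6 made up 24.6% ± 0.423 in SAS and 25.6% ± 0.73 in vehicle, and its shares met at 25.1%. The ratio of Dusp4 to Dusp6 within a library was 1.80, 1.95 and 1.81 in SAS, against 1.60, 1.47 and 1.38 in vehicle. Its groups did not overlap, at the smallest p that 3 libraries against 3 allow (exact two-sided permutation p = 0.1, adjusted p = 0.133 over the 8 ratios compared, which were chosen after the values were seen).

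All 3 Sprouty members rose. Spry1 (NCBI Gene 24063), an inhibitor of signalling from growth factor receptors to RAS, had 9.91, 11.87 and 11.32 FPKM in SAS libraries, against 7.24, 8.89 and 8.86 FPKM in vehicle libraries. The groups did not overlap, though the first library was the lowest in each. Spry1 was 1.32-fold higher in SAS (log2 fold change 0.37, SE 0.090, limma adjusted p = 0.00838), and the call was lost when no filter on low values was applied (adjusted p = 0.0576). Spry2 (NCBI Gene 24064), a related inhibitor that also binds the ubiquitin ligase Cbl, had 8.06, 9.78 and 8.48 FPKM in SAS libraries, against 5.48, 6.50 and 6.58 FPKM in vehicle libraries. It was 1.42-fold higher in SAS, with no overlap (log2 fold change 0.44, SE 0.088, limma adjusted p = 0.00268).

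Spry4 (NCBI Gene 24066) had the highest ratio of SAS to vehicle means among the members, from a low level. It had 1.15, 1.49 and 1.26 FPKM in SAS libraries, against 0.51, 0.53 and 0.69 FPKM in vehicle libraries. That is 2.25-fold higher on the FPKM scale with no overlap, while the log2(FPKM + 1) scale compresses it to 0.54 (SE 0.076, limma adjusted p = 0.00033). With a pseudocount of 0.1 the log2 fold change was 1.05. The Spry4 share of summed Sprouty FPKM was 6.14% ± 0.256 in SAS and 3.82% ± 0.475 in vehicle, and its ratio to Spry2 was 0.143, 0.152 and 0.149 in SAS, against 0.0931, 0.0815 and 0.105 in vehicle (exact permutation p = 0.1, adjusted p = 0.133). The ratio of Spry2 to Spry1 overlapped between the groups, at 0.795 ± 0.0405 in SAS and 0.744 ± 0.0129 in vehicle (exact permutation p = 0.2, adjusted p = 0.2). Spry3 was listed at 0 in all libraries but the third SAS library, at 0.01 FPKM.

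Spred1 (NCBI Gene 114715), which brings the RAS inactivator neurofibromin to the membrane, did not pass. It had 4.17, 4.34 and 4.34 FPKM in SAS libraries, against 4.74, 5.16 and 4.92 FPKM in vehicle libraries. All SAS libraries lay below all vehicle libraries, by 1.15-fold (log2 fold change -0.17, 95% confidence interval -0.31 to -0.022, limma adjusted p = 0.0675). It passed with quantile normalization (adjusted p = 0.035) and without the intensity trend (adjusted p = 0.0453). The ratio of Spred1 to Spry2 was 0.517, 0.444 and 0.512 in SAS, against 0.865, 0.794 and 0.748 in vehicle, without overlap (exact permutation p = 0.1, adjusted p = 0.133). Its relative Spred2 averaged 13.7 ± 1.22 FPKM in SAS and 12.4 ± 0.989 FPKM in vehicle, and Spred3 averaged 2.85 ± 0.305 FPKM in SAS and 2.45 ± 0.208 FPKM in vehicle. Neither passed (limma adjusted p = 0.204 and 0.153).

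Among the PEA3 factors, 1 of 3 members fell and the others did not pass. Etv4 (NCBI Gene 18612), the founding PEA3 factor, had 0.78 FPKM in each of the SAS libraries, against 2.97, 2.11 and 2.19 FPKM in vehicle libraries. It averaged 2.42 ± 0.475 FPKM in vehicle, and the SAS level was 3.11-fold lower on the FPKM scale. The log2(FPKM + 1) scale compresses this to a log2 fold change of -0.93 (SE 0.091, limma adjusted p = 3.15e-05). Over the processing alternatives the log2 fold change of Etv4 reached -1.50, and 14.2% of genes tested had a lower mean level. On the log2(FPKM + 1) scale, Etv4 ranked 15 from the bottom among the log2 fold changes of all genes tested. The first vehicle library was the highest, and without it the log2 fold change was -0.82.

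Etv5 (NCBI Gene 104156), whose second window is printed above, was the most abundant PEA3 factor. It had 3.16, 3.52 and 2.64 FPKM in SAS libraries, against 4.72, 3.66 and 3.62 FPKM in vehicle libraries. Every SAS library lay below every vehicle library, but the gap between the groups was small and the difference did not pass (log2 fold change -0.28, 95% confidence interval -0.51 to -0.056, limma adjusted p = 0.0505). It passed without SAS replicate 2 (adjusted p = 0.0315) and without vehicle replicate 3 (adjusted p = 0.0442), and in 4 other alternatives listed with the processing. Etv1 (NCBI Gene 14009) overlapped between the groups, with 1.79, 1.67 and 1.63 FPKM in SAS libraries, against 1.84, 1.79 and 1.30 FPKM in vehicle libraries (log2 fold change 0.035, 95% confidence interval -0.15 to 0.22, limma adjusted p = 0.777). Its sign turned without vehicle replicate 3 (log2 fold change -0.062) and with array weights (-0.034).

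The levels of the PEA3 factors were also compared within each library, in ratios chosen after the values were seen, which restate the members above. The ratio of Etv4 to Etv1 was 0.436, 0.467 and 0.479 in SAS, against 1.61, 1.18 and 1.68 in vehicle. The ratio of Etv4 to Etv5 was 0.247, 0.222 and 0.296 in SAS, against 0.629, 0.577 and 0.605 in vehicle. Neither ratio overlapped between the groups (exact permutation p = 0.1, adjusted p = 0.133 for each), and the ratio of Etv5 to Etv1 did (exact permutation p = 0.2, adjusted p = 0.2). Etv4 made up 14.0% ± 1.25 of summed PEA3 FPKM in SAS and 30.0% ± 1.78 in vehicle.

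**Figure D3:**
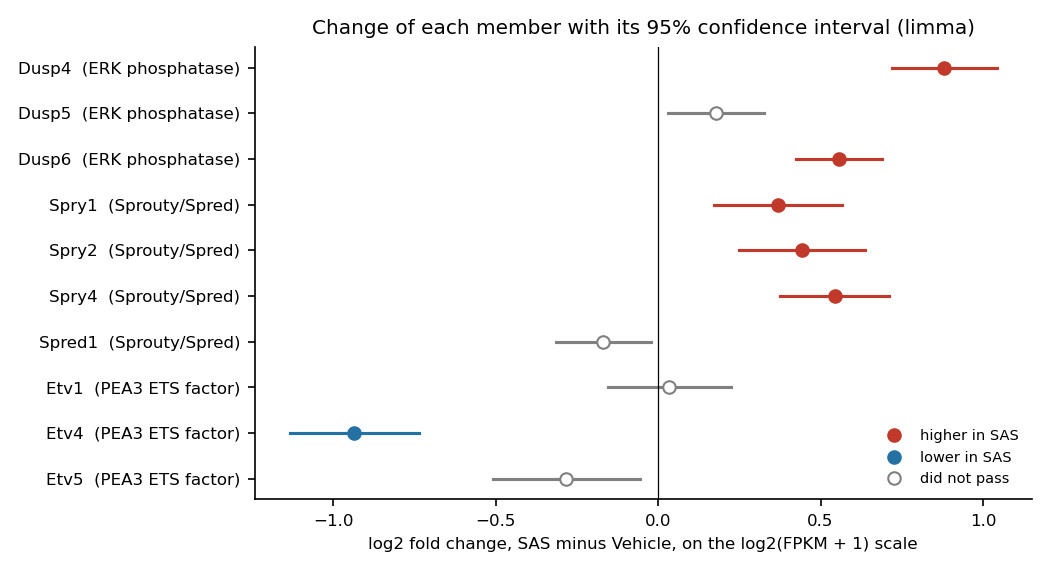
The log2 fold change of each member, SAS minus vehicle on the log2(FPKM + 1) scale (x axis), with its 95% confidence interval as a line; filled points passed the test. Dusp4, Dusp6 and the 3 Sprouty genes lie right of 0, from 0.37 to 0.88, and Etv4 lies at -0.93.

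Levels were also summed over the members of each role. The 3 phosphatase members summed to 90.64, 102 and 87.19 FPKM in SAS libraries, against 55.81, 52.93 and 54.15 FPKM in vehicle libraries. The Sprouty and Spred members summed to 23.29, 27.48 and 25.4 FPKM in SAS libraries, against 17.97, 21.08 and 21.05 FPKM in vehicle libraries. The PEA3 members summed to 5.73, 5.97 and 5.05 FPKM in SAS libraries, against 9.53, 7.56 and 7.11 FPKM in vehicle libraries. None of these sums overlapped between the groups, which was also true of 49.4% of single genes tested. The sums restate the members above. Dusp4 made up most of the phosphatase sum, Spred1 lay lower in SAS while the Sprouty genes lay higher, and Etv4 alone of the PEA3 members passed. The ratio of Dusp6 to Etv5, a phosphatase and a factor, was 10.2, 9.75 and 11.7 in SAS, against 4.53, 5.80 and 6.22 in vehicle (exact permutation p = 0.1, adjusted p = 0.133).

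The order of the members by FPKM changed at one place. In both groups Dusp4 led, followed by Dusp6, Spry1, Spry2, Spred1 and Etv5, and Dusp5 was last. In SAS, Etv1, Spry4 and Etv4 followed Etv5 in that order, whereas in vehicle the order was Etv4, Etv1 and Spry4. No neighbours overlapped in library values in either group, but Spred1 and Etv5 in vehicle came close, with a lowest Spred1 value of 4.74 and a highest Etv5 value of 4.72 FPKM.

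**Figure D4:**
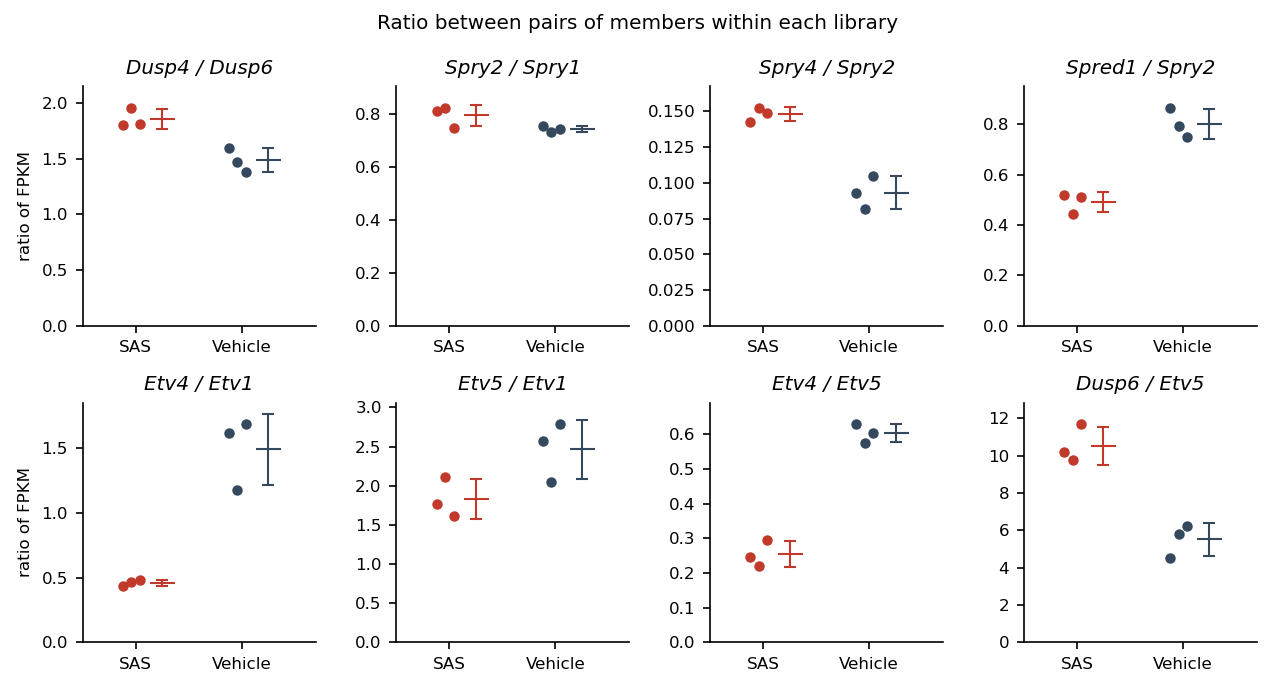
Ratio of FPKM between pairs of members within each library (y axis, each panel from 0), for SAS and vehicle; points are libraries and bars the mean ± SD. Of the 8 ratios, those of Spry2 to Spry1 and of Etv5 to Etv1 overlap between the groups and the other 6 do not. The pairs were chosen after the values were seen and restate the members, and the share of other gene pairs that separate was not computed.

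Of 117 other pathway genes tested in 7 lists, 22 rose and 24 fell, or 18.8% and 20.5%, beside 18.9% and 18.5% of all genes tested. The number that fell was 10 without vehicle replicate 2 and 15 without SAS replicate 1 or vehicle replicate 1. Among the other MAP kinase phosphatases, 2 of 7 rose and 1 fell. Dusp2, an inducible nuclear phosphatase, had 9.96, 9.40 and 9.88 FPKM in SAS libraries, against 3.85, 4.16 and 4.95 FPKM in vehicle libraries (2.26-fold, limma adjusted p = 9.04e-06). The immediate early phosphatase Dusp1 was 1.47-fold higher in SAS, with 5.94, 6.09 and 5.55 FPKM against 3.38, 4.32 and 4.27 FPKM in vehicle (adjusted p = 0.00182). Dusp16, which acts on JNK and p38, was 1.22-fold lower in SAS (adjusted p = 0.0325), and its call was lost when any library but vehicle replicate 3 was left out (adjusted p = 0.0629 to 0.148), without a filter and with a common FPKM sum. The other cascade inhibitors, among them RAS GTPase activating proteins, had 0 of 16 higher and 2 lower by limma. Those were Rasa1, 1.31-fold lower (adjusted p = 0.0176), and the RAF inhibitor Pebp1, 1.11-fold lower (adjusted p = 0.037). Without SAS replicate 3 or vehicle replicate 2 neither passed, and without SAS replicate 2, vehicle replicate 1 or vehicle replicate 3 only Rasa1 did. The Pebp1 call was also lost in 5 alternatives of scaling, trend or block. At an unadjusted limma p below 0.05, 0 of the 16 were higher and 4 lower. The share of all genes tested at that threshold was not computed, so these counts are not read as a result about the inhibitors.

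Of 24 other genes tested that were listed as ERK outputs, 10 rose, 3 fell and 11 did not pass. Those that rose or fell made up 41.7% and 12.5%, beside 18.9% and 18.5% of all genes tested. The median log2 fold change of the 24 was 0.069, beside -0.014 over all genes tested. The list was not sorted by whether ERK raises or lowers a gene, so a rise or fall in it is not read as more or less ERK activity. Egr1, an immediate early zinc finger factor, had 3.13, 2.35 and 1.76 FPKM in SAS libraries, against 0.40, 0.33 and 0.46 FPKM in vehicle libraries (6.08-fold, limma adjusted p = 2.57e-05), and it reached the mean needed for testing through its SAS libraries alone. Fos and Junb, components of AP-1, were 2.60-fold and 1.91-fold higher (adjusted p = 1.8e-05 and 1.4e-05), and the early response gene Ier3 was 1.64-fold higher (adjusted p = 1.54e-05). The 3 genes that fell were Phlda2, an imprinted regulator of growth, 1.80-fold lower (adjusted p = 0.000786), the fatty acid elongase Elovl6, 1.36-fold lower (adjusted p = 0.00285), and Bcl2l11, which encodes the apoptosis inducer Bim, 1.39-fold lower (adjusted p = 0.014). The Bcl2l11 call was lost without vehicle replicate 2 (adjusted p = 0.0516). The count of genes that fell was 5 without vehicle replicate 1. Cyclin D1 (Ccnd1), another output of the pathway, averaged 78.5 ± 8.51 FPKM in SAS and 80.7 ± 6.86 FPKM in vehicle and did not pass (adjusted p = 0.718).

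Among other ETS factors and regulators of the ETV genes, 1 of 18 rose and 3 fell. These were 5.56% and 16.7%, beside 18.9% and 18.5% of all genes tested. The pseudokinase Trib1, an adaptor of the ubiquitin ligase Cop1, was 1.61-fold higher (limma adjusted p = 0.000467), and Cop1, which targets ETV proteins for degradation, was 1.24-fold lower (adjusted p = 0.00968). The ETS repressor Erf, which ERK exports from the nucleus, was 1.24-fold lower (adjusted p = 0.00172), and the ETS factor Gabpa was 1.32-fold lower (adjusted p = 0.00873). Without SAS replicate 2, 5 of the 18 fell. Cic itself had 33.81, 33.45 and 32.11 FPKM in SAS libraries, against 33.39, 35.87 and 31.54 FPKM in vehicle libraries, and did not pass (log2 fold change -0.018, 95% confidence interval -0.15 to 0.12, adjusted p = 0.834).

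Receptors and adaptors had 4 of 22 tested higher and 7 lower, or 18.2% and 31.8%, beside 18.9% and 18.5% of all genes tested. The number lower was 3 when SAS replicate 1, vehicle replicate 1 or vehicle replicate 2 was left out. Fgfr3, a fibroblast growth factor receptor, had 4.91, 3.82 and 3.42 FPKM in SAS libraries, against 1.52, 1.72 and 1.67 FPKM in vehicle libraries (2.47-fold, limma adjusted p = 6.06e-05). Met, the receptor of hepatocyte growth factor, was 1.90-fold higher, with 37.2, 41.1 and 41.41 FPKM in SAS libraries and 20.69, 23.23 and 19.22 FPKM in vehicle libraries (adjusted p = 1.1e-05). The receptor Axl was 1.54-fold higher (adjusted p = 0.000181), and Igf1r, a receptor of insulin-like growth factors, was 1.52-fold lower (adjusted p = 0.00217). Kit stood at 2.10 ± 0.14 FPKM in SAS and 1.97 ± 0.111 FPKM in vehicle and did not pass (adjusted p = 0.513).

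In the RAS, RAF, MEK and ERK core, 3 of 20 tested rose and 5 fell, none by more than 1.37-fold among those named here. These were 15.0% and 25.0%, beside 18.9% and 18.5% of all genes tested. The kinase Araf was 1.29-fold higher (limma adjusted p = 0.000629) and ERK1 itself, encoded by Mapk3, was 1.23-fold higher (adjusted p = 0.00115). The phosphatase subunit Ppp1cb was 1.37-fold lower (adjusted p = 0.000642). The number that fell was 2 without SAS replicate 1 or vehicle replicate 1, 1 without vehicle replicate 2 and 3 without vehicle replicate 3. Of 10 kinases and substrates below ERK, 2 rose and 3 fell, or 20.0% and 30.0%, beside the same shares of all genes tested. Only 1 of them fell when vehicle replicate 1 or 2 was left out. The kinase genes Mknk2 and Rps6ka4 were 1.39-fold and 1.25-fold higher (adjusted p = 8.3e-05 and 0.00197), the microtubule regulator Stmn1 was 1.40-fold lower (adjusted p = 0.000197) and Mknk1 was 1.20-fold lower (adjusted p = 0.0301). The Mknk1 call was lost without any 1 library other than SAS replicate 2 (adjusted p = 0.0564 to 0.0912), without a filter and with a common FPKM sum.

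**Figure D5:**
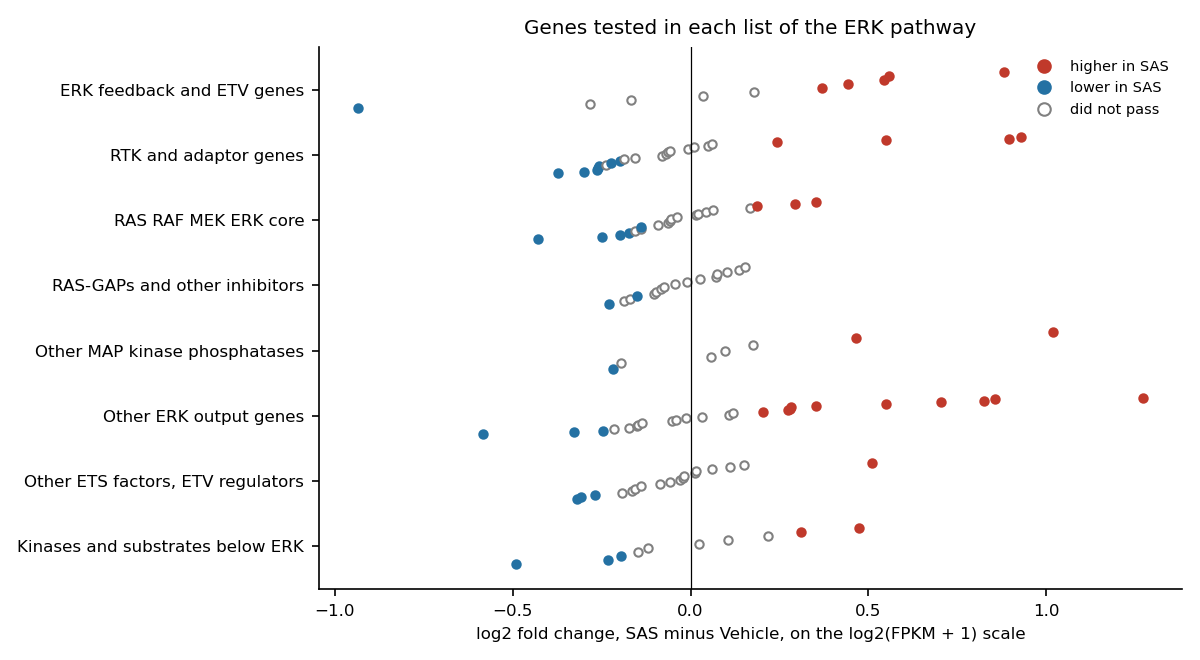
The log2 fold change, SAS minus vehicle on the log2(FPKM + 1) scale (x axis), of every gene tested in each list; points are genes, red passed higher, blue passed lower and open points did not pass. Egr1 at 1.27 and Dusp2 at 1.02 lie furthest right and Etv4 at -0.93 furthest left.

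The FPKM of a library summed to 590238 to 617275, and 9746 to 9826 genes reached 1 FPKM in each. All 7 melanocyte markers were expressed. Their summed level was 8730 to 10638 FPKM in SAS and 7414 to 8362 FPKM in vehicle, so it moved with the groups. Of the 7, 5 passed as higher, where 18.9% of all genes tested did. Tyrp1 and Mlana overlapped between the groups and did not pass (limma adjusted p = 0.0804 and 0.391), and the log2 fold change of Mlana was -0.088. The summed level of the 3 leukocyte markers measured of 5 listed also moved with the groups, at 4.72 to 4.92 FPKM in SAS and 2.47 to 3.02 FPKM in vehicle. Both of those tested passed as higher, the macrophage protein Cd68 (1.76-fold, limma adjusted p = 0.000144) and Lyz2. Lyz2 averaged 0.86 FPKM in SAS and 0.47 FPKM in vehicle, so it reached the mean needed for testing through its SAS libraries alone. The 4 fibroblast markers measured of 5 summed to 0.73 to 0.79 FPKM in SAS and 0.93 to 1.18 FPKM in vehicle. Col1a2, the only fibroblast marker tested, passed as lower (limma adjusted p = 0.00252), where 18.5% of all genes tested did. It averaged 0.40 FPKM in SAS and 0.75 FPKM in vehicle, so it reached the mean needed for testing through its vehicle libraries alone. Col1a1, below the level tested, overlapped between the groups. The 2 endothelial markers measured of 3 stayed at or below 0.05 FPKM in every library. The 3 epithelial markers measured of 4 summed to 0.14 to 0.21 FPKM in SAS and 0.08 to 0.09 FPKM in vehicle. Of these, Cdh1 stood at 0.14 to 0.17 FPKM in SAS and 0.05 to 0.08 FPKM in vehicle, below the level tested, and Krt5 at 0. The part of these differences in the results above was not tested.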

How the data were processed

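The deposited table holds FPKM values to 2 decimals, 1 column per library, per the file headers. FastQC, HISAT and Bowtie2 are named without version or role, per the submitters' processing notes. For the program behind FPKM, the build, the annotation and any use of strand: not given in the sources used here. FPKM is a share of the library, so abundant genes that rise lower the rest. Columns named 24 h were matched to SAS, the group whose treatment label gives that time, and columns named 0 h to vehicle by elimination. Nothing says that replicates were separate cultures, so p-values measure only how these samples spread, and that spread may be technical.

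Of 16315 Gene identifiers, 99.3% matched a symbol in RefSeq's GRCm38.p6 table. Depth is unknown: of 34 low genes, 3 moved in whole steps (tolerance 0.15), so no reads were recovered and no count test was run. Values were tested as log2(FPKM + 1) in the 10615 genes that averaged 0.5 FPKM or more, using limma (version 3.58.1, R 4.3.3) with an intensity trend. Calls were made where the Benjamini-Hochberg adjusted p was below 0.05. It was checked on simulated data. Ratios of members within a library were compared by exact two-sided permutation tests (scipy 1.17.1), whose smallest p is 0.1. All of these ratios were chosen after the values were seen. The members, lists and tests were chosen with earlier results of these data known. The text names every member and, in each other list, up to 4 changed genes with the largest absolute log2 fold change and at least 1 FPKM in a group. Spry3, Spred2 and Spred3 complete member families. A gene that this rule also names is not reported here. Ccnd1, Kit, Cic, Phlda2, Elovl6, Bcl2l11 and the markers were added after their values were seen. Unstranded counting would not separate Dusp5, Spry1 and Spry4 from transcripts annotated on their opposite strand in GENCODE M21. The 17 alternatives changed the pseudocount, filter, scaling, limma options or replicate block, or left out 1 library. Other steps ran in Python 3.11.15 with pandas 2.3.3 and numpy 2.4.6, and plots in matplotlib 3.10.9.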

Additional observations from a re-analysis of the deposited data

How the results depend on the processing

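Dusp4, Dusp6 and Spry2 kept direction and call in all 17 alternatives, and Spry4 and Etv4 in the 16 that tested them, since a mean of at least 5 FPKM leaves them out. Log2 fold changes ranged from 0.80 to 0.93 for Dusp4, 0.52 to 0.59 for Dusp6, 0.37 to 0.53 for Spry2, 0.49 to 1.05 for Spry4 and -1.50 to -0.82 for Etv4. Dusp5 passed with a replicate block (adjusted p = 0.0489) and with array weights (0.0136). The call of Etv5 was gained with a replicate block (0.0279), without trend (0.0481), with robust estimation (0.0475) and with array weights (0.00863). Etv1 turned sign to -0.034 with array weights and ranged from -0.062 (without vehicle replicate 3) to 0.090 (without vehicle replicate 1) with 1 library left out. Ccnd1 and Cic, which did not pass, ranged from -0.12 to 0.040 and from -0.062 to 0.028 with 1 library left out. For these changes the cause was not tested.

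The number of members called lower was 0 at a mean of at least 5 FPKM, which removes Etv4, 3 without trend, 2 with quantile normalization, replicate block, robust estimation or array weights, and 1 to 2 with 1 library left out; the number called higher stayed between 4 and 6. Over all genes, 1398 to 2413 were called higher and 1334 to 2366 lower. In the 7 other lists together, 14 were higher and 13 lower at a mean of at least 5 FPKM, which tests fewer genes, and 19 to 22 higher and 10 to 23 lower with 1 library left out. By list, counts lower ranged over the alternatives from 2 to 8 for receptors (7 as reported), 1 to 5 for the core (5), 0 to 2 for other inhibitors (2), 0 to 2 for other phosphatases (1), 0 to 5 for other outputs (3), 2 to 6 for ETS genes (3) and 1 to 4 below ERK (3). Counts higher ranged from 3 to 4 (4), 2 to 3 (3), 0 to 2 (0), 1 to 3 (2), 5 to 10 (10), 0 to 1 (1) and 2 to 3 (2) in the same order of lists.

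Deviations of same-numbered libraries from their group means correlated at -0.08, 0.145 and 0.234 over the genes tested, so the numbers were not taken as pairs, and of the SAS libraries the third alone correlated best with its own number. With the replicate block, 6 members were called higher and 2 lower, and 2187 genes higher and 2158 lower. Depth in fragments is unknown, so the precision of low genes such as Dusp5 cannot be stated beyond the spread of 3 libraries.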

Other observations

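Several pathway genes were at or near 0. Egfr, Ednrb, Fosl1 and Ksr2 were listed at 0 FPKM in every SAS and vehicle library. Epha2, which with Epha4 is a common output of the pathway in melanoma, stood at 0.42 to 0.47 FPKM in SAS and 0.53 to 0.56 FPKM in vehicle, below the level tested, and Epha4 at 0.05 to 0.08 FPKM in SAS and 0.03 to 0.06 FPKM in vehicle. Of receptors that bind fibroblast growth factors, Fgfr1, Fgfr2 and Fgfr4 stood at or below 0.32 FPKM in every library. They were named with their values already seen.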
